A study of Sus scrofa with 9 samples.

Results

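The nuclear-encoded subunits of the oxidative phosphorylation complexes were examined in a back muscle, the longissimus dorsi, of finishing pigs fed 3 levels of dietary lysine. Members were taken by gene symbol. A gene belonged to the set when a probe set with that single symbol in the array annotation matched one of the family names NDUFA, NDUFB, NDUFC, NDUFS, NDUFV, SDHA to SDHD, UQCR, CYC1, COX4 to COX8 or ATP5. The rule found 53 genes among the 12361 named genes of the array, from 58 matching probe sets, and used no measured difference. Where a gene had more than 1 probe set, the one with the highest mean over the 9 arrays represented it. The set held 31 genes of complex I, 1 of complex II, 2 of complex III, 6 of complex IV and 13 of complex V. Symbols are those of the annotation, so that ATP5A1 stands for the gene now called ATP5F1A. Several defining subunits, among them SDHA, SDHB, UQCRC1, CYC1, COX4I1, COX5A, COX6A2 and COX7A1, are not analysed here.

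Of the 53 genes, 50 encode subunits of an enzyme complex. The other 3 share only the family name. NDUFA4L2 is a paralogue of NDUFA4. ATP5S, also called coupling factor B, and ATP5SL, now called DMAC2, are not parts of the ATP synthase, and ATP5SL is known from human cells as a factor in the assembly of complex I.

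The 9 pigs were male, weighed about 95 kg at the start and gave 1 array each. After 5 weeks on the diets, muscle was taken at the level of ribs 10 to 12. Pigs 1, 2 and 3 received the lysine-deficient diet, pigs 9, 10 and 11 the lysine-excess diet and pigs 5, 6 and 7 the lysine-adequate diet, so each diet is represented by 3 animals, and the comparisons concern how muscle transcripts differed with lysine supply. No breed, genotype or lysine content of the diets is used here. Whole-transcript arrays gave the values, which are on a log scale taken as log2. Differences are therefore log2 differences, and levels of different probe sets are not comparable with each other.

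Oxidative phosphorylation takes place in the inner mitochondrial membrane. Complex I passes electrons from NADH, and complex II electrons from succinate, to coenzyme Q. Complex III hands them to cytochrome c, and complex IV transfers them to oxygen. Complexes I, III and IV pump protons out of the matrix, and complex V, the ATP synthase, uses the returning protons to make ATP. Most subunits are encoded in the nucleus, and a small core in each of complexes I, III, IV and V is encoded in mitochondrial DNA. The longissimus of the pig is a predominantly fast, glycolytic muscle in which oxidative fibres are the minority.

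The markers of skeletal muscle measured here, ACTA1, MYH1 and MYLPF (3 of 10 listed), had mean levels of 12.8 to 13.0 in all 9 pigs, near the top of the scale, whose values ran from 3.1 to 14.3. Red blood cell markers (4 of 5 listed) averaged 4.24 to 4.39 per pig and leukocyte markers (3 of 6 listed) 5.17 to 5.60, against a median of 5.07 over all probe sets. Correlations between 8 of the arrays were 0.977 to 0.992. The array of excess pig 11 stood apart from the rest, with correlations of 0.904 to 0.956 and an SD of its values of 1.82, against 1.93 to 1.99 on the other arrays. Differences that involve the excess group are therefore also given without this pig wherever leaving it out turned the sign or moved the value by over 1.5 times.

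The oxidative phosphorylation genes lay in the brighter part of the array, and 52 of the 53 had a mean level at or above the median of all probe sets. The exception was NDUFA4L2, with a mean of 5.02. Their median within-diet SD was 0.18, against 0.17 over all probe sets. The SD was under 0.3 for 47 of the 53 genes, and for 47 the whole range over the 9 pigs stayed under 1. NDUFA12, an accessory subunit of the matrix arm of complex I, was the steadiest, with an SD of 0.05. Its value of 12.17 recurred exactly in adequate pigs 5 and 6 and excess pig 10.

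By pig, the median deviation of the 53 genes from their own means was 0.05, -0.05 and -0.02 in deficient pigs 1, 2 and 3. In the excess group it was 0.02 in pig 9, 0.07 in pig 10 and -0.29 in pig 11. In adequate pigs 5, 6 and 7 it was 0.01, 0.07 and 0.02. The medians of the other 8 pigs lay between -0.05 and 0.07, and excess pig 11 lay below all of them. It was the lowest of the 9 pigs for 36 of the 53 genes (67.9%), including 24 of 31 in complex I (77.4%), 4 of 6 in complex IV and 6 of 13 in complex V. Over all probe sets the same pig was lowest for 31.6%. Among the 2367 probe sets with a mean of at least 9, where most of these genes lie, it was lowest for 61.6% and had a median deviation of -0.25. The low values of this pig were thus shared by bright probe sets at large, and their part in the results below was not tested beyond leaving the pig out.

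**Figure D1:**
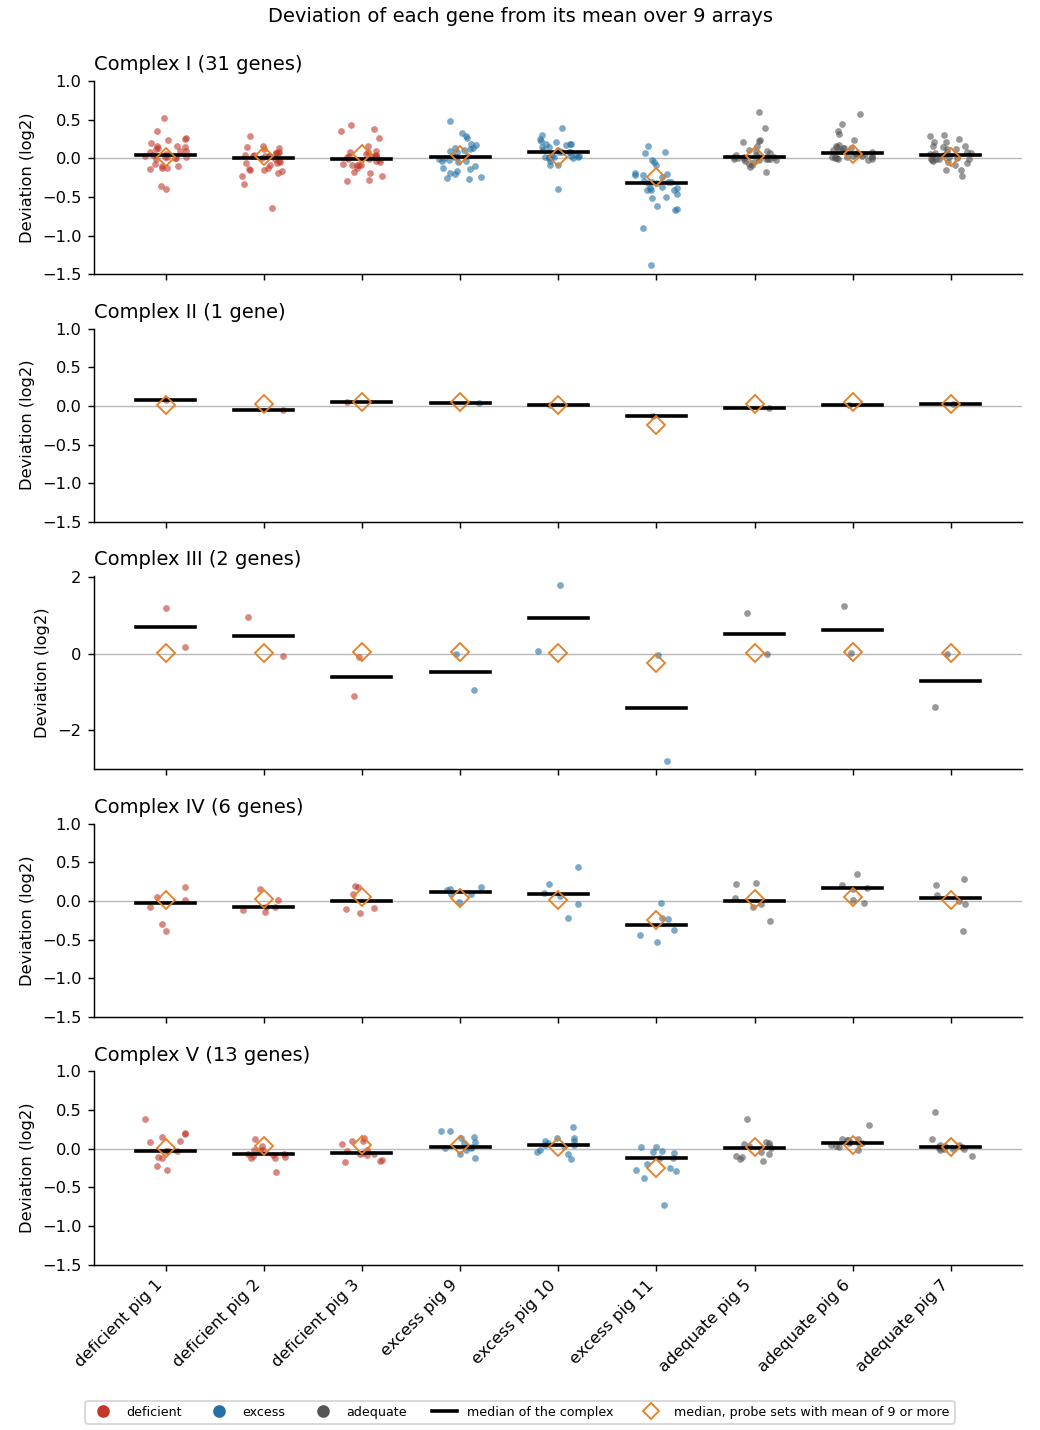
Deviation of each gene from its own mean over the 9 arrays (log2, vertical axis) in each pig (horizontal axis), with 1 panel per complex, points for genes, bars for the median of the complex and open diamonds for the median of probe sets with a mean of at least 9. Excess pig 11 lies low in complexes I and IV (medians -0.31 and -0.30), and the vertical axis of the complex III panel is wider because of UQCR10.

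No oxidative phosphorylation gene passed an adjusted p of 0.05 in any comparison by limma's moderated test with Benjamini-Hochberg adjustment over all 27558 probe sets. The smallest adjusted p among the 53 genes was 1.0 for deficient against adequate, 0.757 for excess against adequate and 0.872 for deficient against excess, and it was 0.933 for any difference among the diets. The share of all probe sets called was also 0% in each of these tests, with 0 of 27558. At an unadjusted p under 0.05, 3 of the 53 genes passed for deficient against adequate, where 1.85% of all probe sets did, and 3 for excess against adequate, where 3.56% did. For deficient against excess 4 of the 53 passed, against 4.08% of all probe sets, and for any difference among the diets 3 of the 53, against 2.54%. With 3 pigs per diet, the median standard error (SE) of a log2 difference was 0.13, and differences below that size are within the error of a typical gene.

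In the lysine-deficient pigs 18 genes were higher and 35 lower than in adequate pigs (median difference -0.04, range -0.52 to 0.16). The split was again 18 and 35 after quantile normalization and after median centring of the arrays, and 22 and 31 when array SD was a covariate. By contrast, 52.9% of all probe sets had a positive difference, with a median of 0.01. Among the probe sets with a mean of at least 9, 48.6% were positive, with a median of -0.005. For 5 genes the 3 deficient pigs all lay below the 3 adequate pigs, and for 0 genes all above. Over all probe sets, 6.84% had groups that did not overlap, 3.07% with the deficient pigs below and 3.77% with them above. The 5 genes were NDUFA1, NDUFA10, NDUFB1 and NDUFS3 of complex I and ATP5SL. Complexes I and V held differences of both signs, whereas both genes of complex III and the single gene of complex II had positive ones and all 6 genes of complex IV negative ones. The positive ones were below their SE, at 0.02 ± 0.07 for SDHD, 0.01 ± 0.08 for UQCRB and 0.05 ± 1.26 for UQCR10. Each of these turned negative on leaving out some single pig.

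In the lysine-excess pigs 15 genes were higher and 38 lower than in adequate pigs (median difference -0.09, range -0.95 to 0.08), and 50.2% of all probe sets had a positive difference. Among the bright probe sets the median of the same comparison was -0.10 and 20.9% had a positive difference. Without excess pig 11, 29 genes lay higher and 24 lower (median 0.01). The split also moved with the scaling of the arrays, at 26 higher and 27 lower after a further quantile normalization, 4 and 49 after centring each array on its median, and 24 and 29 once array SD entered as covariate. The excess pigs all lay below the adequate pigs for 5 genes (ATP5SL, NDUFB11, NDUFA10, NDUFB1 and ATP5S) and above them for 0, while 7.03% of all probe sets had groups that did not overlap, 3.84% with the excess pigs below and 3.2% with them above.

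Between the deficient and the excess pigs 36 genes were higher and 17 lower in deficient pigs (median 0.05, range -0.40 to 1.00), and 50% of all probe sets had a positive difference. Bright probe sets had a median of 0.09, and 70.9% were positive. Without excess pig 11 the balance was 18 higher and 35 lower (median -0.04). It was 28 and 25 after quantile normalization, 41 and 12 after median centring, and 22 and 31 with the SD covariate. The groups did not overlap for ATP5S, which was higher in deficient pigs, nor for NDUFA1, NDUFS3 and ATP5L, which were lower, while 6.47% of all probe sets had groups that did not overlap, 4.28% with the deficient pigs above and 2.19% with them below. ATP5SL, NDUFA10 and NDUFB1 lay below the adequate pigs without overlap in both other comparisons, which share those 3 adequate pigs and are not independent of each other. How many of all probe sets did so in both comparisons was not counted, so these genes have no share to be set against.

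**Figure D2:**
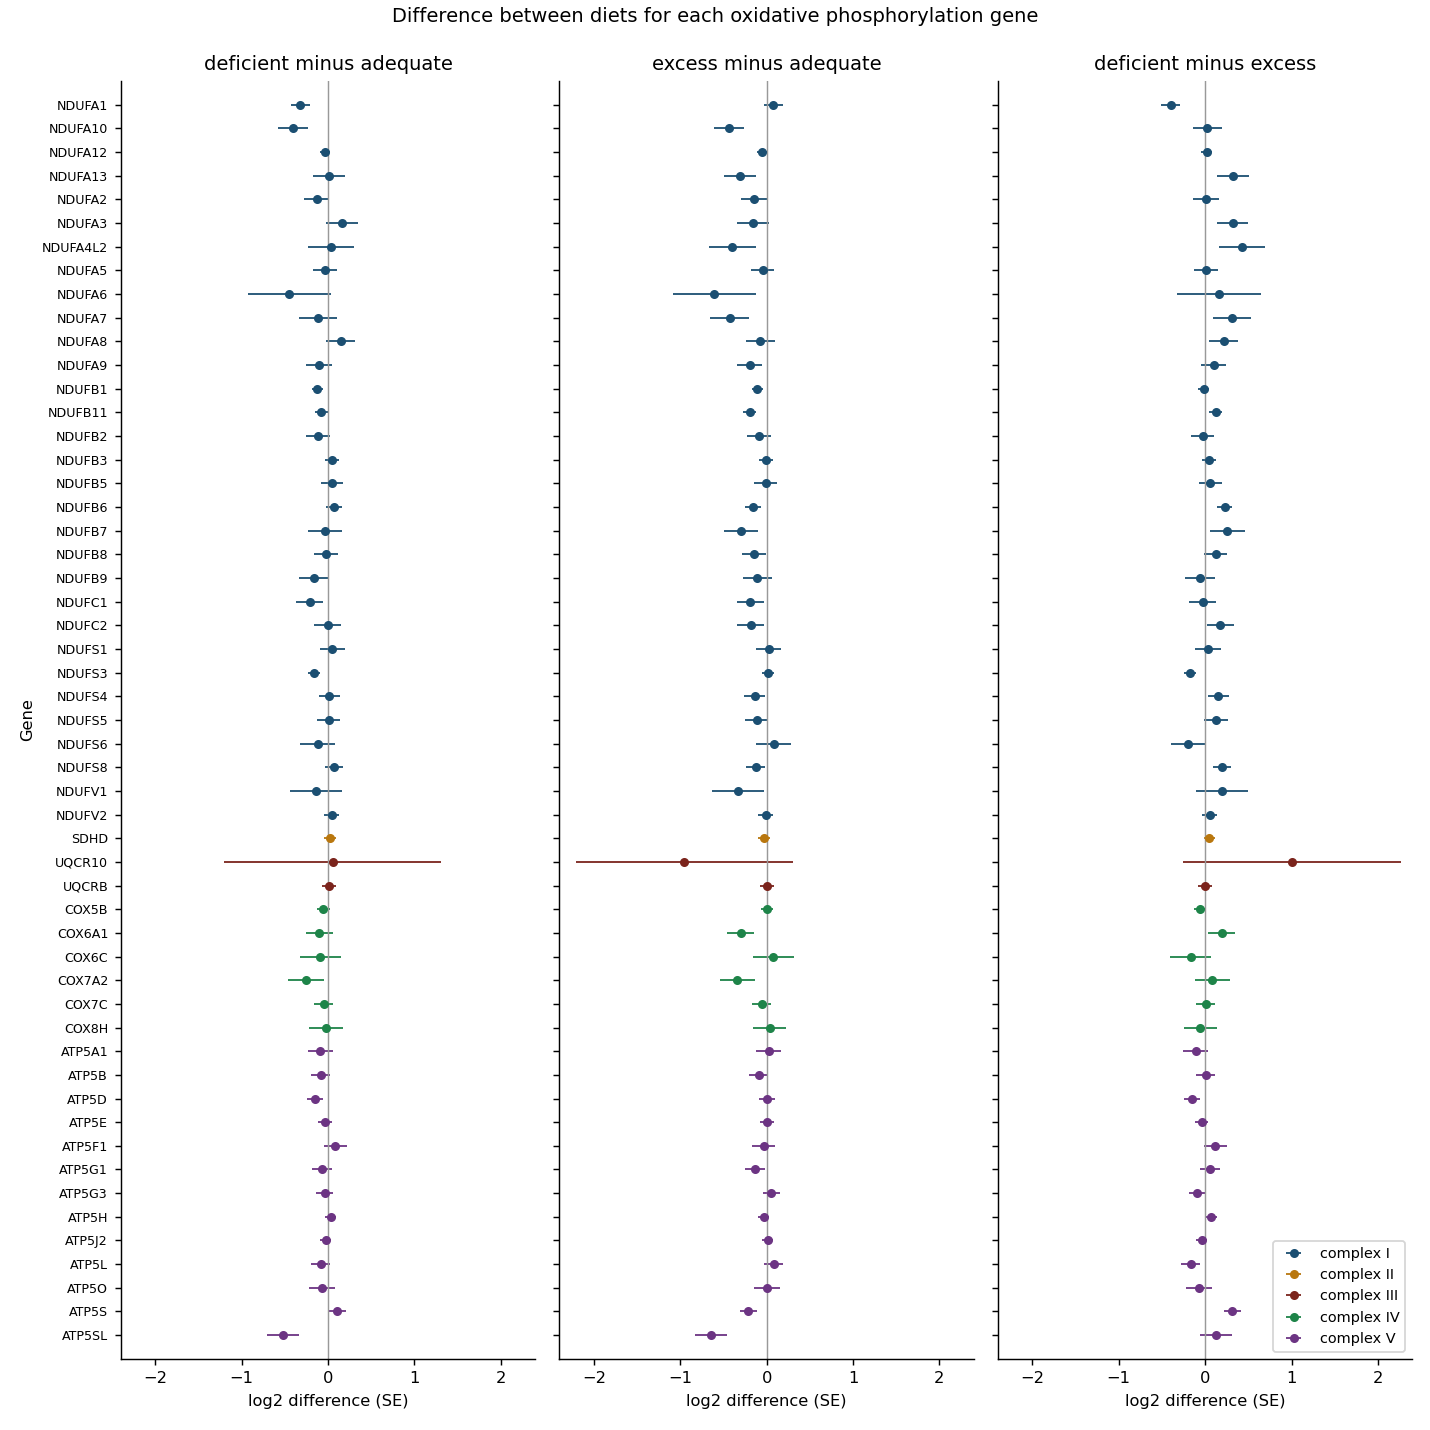
Log2 difference (horizontal axis, bars show 1 SE) for each of the 53 genes (vertical axis, coloured by complex) in deficient minus adequate, excess minus adequate and deficient minus excess. Most genes lie close to 0, ATP5SL lies at -0.52 and -0.64 in the first and second panels, and UQCR10 has an SE of 1.26 in all of them.

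Complex I is an L-shaped enzyme with a matrix arm, which takes electrons from NADH through a flavin and a chain of iron-sulphur clusters, and a membrane arm, which pumps protons. Its 13 measured matrix-arm genes had a median difference of -0.10 for deficient against adequate (4 higher, 9 lower) and -0.13 for excess against adequate (3 higher, 10 lower). The 17 membrane-arm genes had medians of -0.02 (7 higher, 10 lower) and -0.14 (1 higher, 16 lower) in the same comparisons. Without excess pig 11, the excess against adequate medians were 0.00 for the matrix arm and -0.04 for the membrane arm. For deficient against excess the medians were 0.06 in the matrix arm and 0.12 in the membrane arm, and -0.04 and -0.03 without that pig. The complex as a whole had 12 genes higher and 19 lower for deficient against adequate (median -0.04), 4 higher and 27 lower for excess against adequate (median -0.14), and in the second comparison 14 higher and 17 lower without pig 11 (median -0.02). With array SD as covariate the excess against adequate medians were 0.02 for the matrix arm and -0.06 for the membrane arm, and the deficient against adequate median of the membrane arm was 0.01.

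In complex I, NDUFA1 and NDUFS3 had all 3 deficient pigs below the other 6. NDUFA1 is a small accessory subunit of the membrane arm. Its levels were 7.71, 7.88 and 8.02 in deficient pigs, 8.12, 8.41 and 8.27 in excess pigs and 8.12, 8.12 and 8.32 in adequate pigs. The deficient values were the lowest of the 9, and the excess and adequate pigs overlapped. The difference was -0.32 ± 0.11 for deficient against adequate (SE, a 1.25-fold lower level, unadjusted p = 0.0214 by limma) and -0.40 ± 0.11 for deficient against excess (unadjusted p = 0.00762 by limma), with adjusted p-values of 1.0 and 0.872. The value of 8.12 recurred in excess pig 9 and adequate pigs 5 and 6.

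NDUFS3, a core subunit of the matrix arm, had the same order of diets at a smaller size. It measured 10.48, 10.48 and 10.52 in deficient pigs, 10.73, 10.68 and 10.58 in excess pigs and 10.56, 10.71 and 10.69 in adequate pigs. The deficient pigs lay below the other 6 without overlap. Its difference was -0.16 ± 0.07 for deficient against adequate (SE, unadjusted p = 0.0506 by limma) and -0.17 ± 0.07 for deficient against excess (unadjusted p = 0.0388 by limma).

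NDUFA10, an accessory subunit of the membrane arm that resembles nucleoside kinases, was lower than in adequate pigs under both other diets. Deficient pigs had 7.77, 7.56 and 7.97 and excess pigs 8.03, 7.80 and 7.38, against 8.13, 8.24 and 8.14 in adequate pigs. Neither group overlapped with the adequate pigs, and the deficient and excess pigs overlapped with each other. The differences were -0.41 ± 0.17 for deficient against adequate (SE, 1.33-fold lower, unadjusted p = 0.0457 by limma) and -0.43 ± 0.17 for excess against adequate (unadjusted p = 0.0359 by limma). Without excess pig 11 the second was -0.26.

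NDUFB1 and NDUFB11, accessory subunits of the far end of the membrane arm, differed by less. NDUFB1 measured 10.52, 10.47 and 10.37 in deficient pigs and 10.45, 10.51 and 10.45 in excess pigs, against 10.55, 10.57 and 10.62 in adequate pigs. These 6 pigs lay below the 3 adequate pigs, with differences of -0.12 ± 0.06 for the deficient and -0.11 ± 0.06 for the excess diet (SE). NDUFB11 was 11.11, 11.13 and 11.09 in deficient pigs, 10.96, 11.10 and 10.90 in excess pigs and 11.11, 11.23 and 11.22 in adequate pigs. Only its excess pigs lay below the adequate ones without overlap, by a difference of -0.20 ± 0.07 (SE, unadjusted p = 0.0257 by limma), or -0.16 without pig 11.

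NDUFB6 of the membrane arm was the other complex I gene at an unadjusted p under 0.05 and was singled out after its values were seen. Deficient pigs had 11.67, 11.45 and 11.45 and excess pigs 11.23, 11.45 and 11.21, and the 2 groups touched at 11.45. That value recurred exactly in deficient pigs 2 and 3 and excess pig 10. The difference was 0.22 ± 0.09 (SE, unadjusted p = 0.0415 by limma).

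The measured electron-carrying subunits NDUFV1, NDUFV2, NDUFS1 and NDUFS8 showed no separation of the diets. NDUFV1, which binds NADH and the flavin, measured 7.82, 7.74 and 8.28 in deficient pigs, 8.26, 7.98 and 7.02 in excess pigs and 8.14, 8.11 and 8.01 in adequate pigs, and the groups overlapped in every comparison. NDUFS1, the largest core subunit, measured 10.25, 9.93 and 10.16 in deficient pigs, 10.38, 10.09 and 9.79 in excess pigs and 10.07, 10.07 and 10.04 in adequate pigs. Here too the diets overlapped, and for both genes excess pig 11 had the lowest value of the 9. NDUFA9, an accessory subunit at the junction of the arms, measured 10.87, 10.60 and 10.79 in deficient pigs, 10.49, 10.95 and 10.54 in excess pigs and 10.73, 10.78 and 11.06 in adequate pigs, with differences from adequate of -0.10 ± 0.15 in deficient and -0.20 ± 0.15 in excess pigs (SE).

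NDUFA6, a matrix-arm accessory subunit, had the largest within-diet SD after UQCR10, at 0.67. Its levels were 6.21, 5.65 and 6.72 in deficient pigs, 6.77, 6.44 and 4.91 in excess pigs and 6.69, 6.87 and 6.37 in adequate pigs. A second probe set for the gene, with a mean of 4.45, below the array median, gave a deficient minus adequate difference of 0.15 ± 0.14, against -0.45 ± 0.49 (SE) for the first. The paralogue NDUFA4L2, known from human cells to be induced by low oxygen, measured 5.02, 5.09 and 5.40 in deficient pigs, 5.20, 4.62 and 4.41 in excess pigs and 5.62, 5.00 and 4.79 in adequate pigs. These values lie around the median of all probe sets, and the diets overlapped.

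Complex II was represented by SDHD alone, one of the membrane anchors that hold succinate dehydrogenase to the inner membrane. It measured 11.11, 10.99 and 11.09 in deficient pigs, 11.07, 11.06 and 10.91 in excess pigs and 11.01, 11.06 and 11.07 in adequate pigs. The 3 diets overlapped, with differences of 0.02 ± 0.07 for deficient against adequate, -0.03 ± 0.07 for excess against adequate and 0.05 ± 0.07 for deficient against excess (SE). Excess pig 11 was again the lowest, and without it the excess against adequate difference of SDHD was 0.019 and the deficient against excess one -0.0014. A second SDHD probe set had a mean of only 4.15, below the array median of 5.07, and its differences are not given.

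The 2 genes of complex III behaved very differently from each other. UQCRB, which encodes a small subunit near the ubiquinone site, was nearly constant, at 10.99, 10.77 and 10.73 in deficient pigs, 10.81, 10.88 and 10.79 in excess pigs and 10.81, 10.83 and 10.82 in adequate pigs. UQCR10, a small accessory subunit of the complex, measured 10.55, 10.32 and 8.24 in deficient pigs, 8.40, 11.14 and 6.56 in excess pigs and 10.41, 10.60 and 7.95 in adequate pigs. Its values lay in a high range of 10.32 to 11.14 in 5 pigs and in a lower range of 7.95 to 8.40 in 3 pigs, 1 on each diet, with excess pig 11 below both at 6.56.

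The span of UQCR10 across the 9 pigs was 4.58 on the log2 scale, or 23.9-fold. Its within-diet SD of 1.74 was matched or exceeded by only 40 of the 27558 probe sets, itself included, and the next member, NDUFA6, had 0.67. The differences between diets were smaller than this spread, at 0.05 ± 1.26 for deficient against adequate, -0.95 ± 1.26 for excess against adequate and 1.00 ± 1.26 for deficient against excess (SE). Without excess pig 11 the last 2 were 0.12 and -0.06. The within-diet SD of UQCRB, measured on the same arrays, was 0.09. Among the 2073 probe sets with a within-diet SD of at least 0.5, the highest Pearson correlation with UQCR10 over the 9 arrays was 0.89, and 0 reached 0.9.

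**Figure D3:**
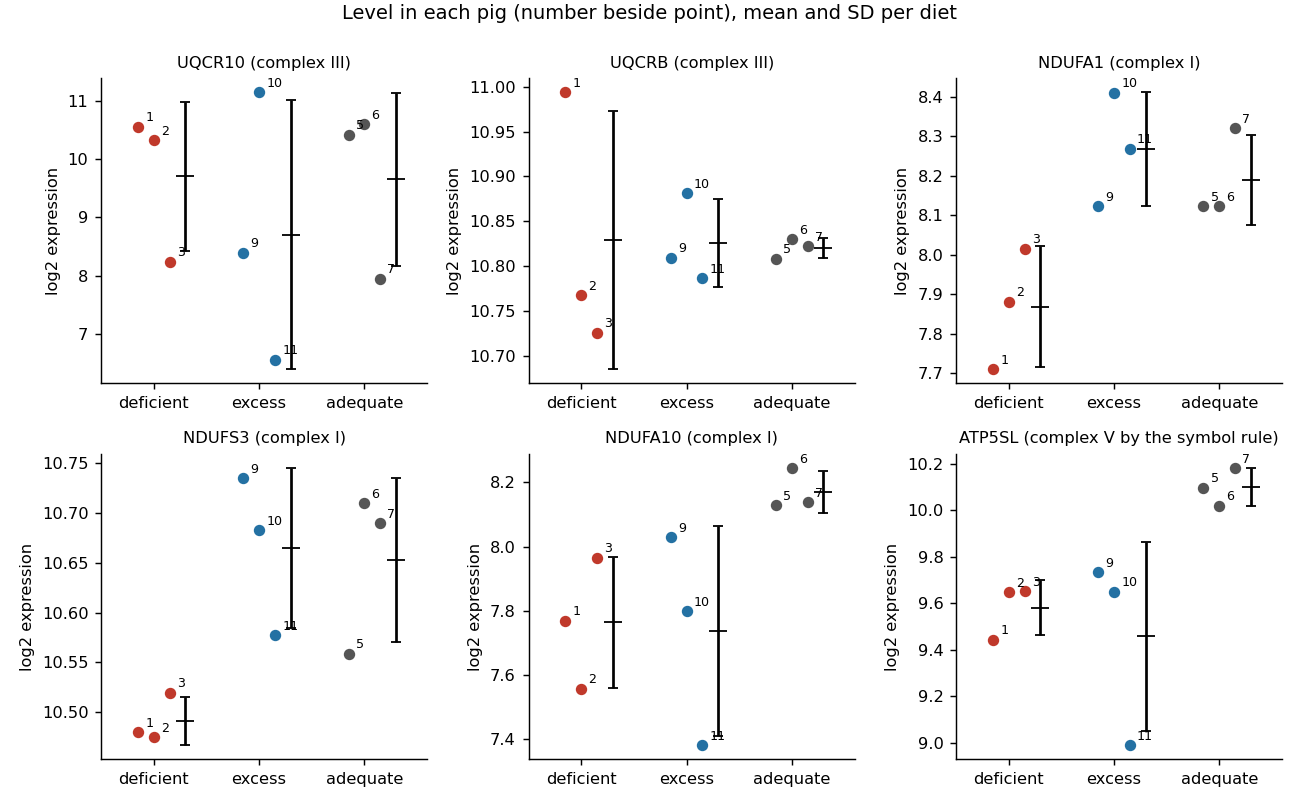
Log2 level (vertical axis, scaled per gene) of 6 genes in each pig by diet, with pig numbers beside the points and the mean and SD per diet as bars. UQCR10 spans 6.56 to 11.14 within the excess diet alone, NDUFA1 and NDUFS3 are lowest in the 3 deficient pigs, and NDUFA10 and ATP5SL are highest in the 3 adequate pigs.

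Complex IV, cytochrome c oxidase, was represented by 6 nuclear-encoded subunits, which surround the catalytic core made from mitochondrial DNA. All 6 were lower in deficient than in adequate pigs, by 0.02 to 0.25 (median -0.07), or 5 of 6 with array SD as covariate, yet none of the 6 had groups that did not overlap. For excess against adequate 3 were higher and 3 lower (median -0.03), and without excess pig 11 these counts were 4 and 2 (median 0.04). For deficient against excess 3 were higher and 3 lower (median -0.03), against 1 and 5 (median -0.10) without that pig.

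COX7A2, the isoform of subunit 7A found in most tissues, measured 6.52, 6.92 and 7.10 in deficient pigs, 7.04, 6.87 and 6.38 in excess pigs and 6.94, 7.25 and 7.11 in adequate pigs. The diets overlapped, with differences from adequate of -0.25 ± 0.21 for the deficient diet and -0.34 ± 0.21 for the excess diet (SE). The excess difference was -0.15 without pig 11. COX6A1, likewise the widely expressed isoform of its subunit, measured 9.77, 9.92 and 9.67 in deficient pigs, 9.91, 9.54 and 9.32 in excess pigs and 9.99, 9.97 and 9.72 in adequate pigs. Its excess minus adequate difference was -0.30 ± 0.16 (SE), and -0.16 without pig 11, and the groups overlapped. COX8H, the heart and muscle form of subunit 8, measured 11.06, 10.76 and 10.72 in deficient pigs, 10.97, 11.09 and 10.64 in excess pigs and 11.09, 11.03 and 10.48 in adequate pigs, and it too overlapped between diets.

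COX5B, a zinc-binding subunit, was the steadiest of the complex, between 10.01 and 10.21 in all 9 pigs, with a deficient minus adequate difference of -0.06 ± 0.07 (SE). COX7C lay between 11.94 and 12.32, and COX6C between 9.09 and 9.91 with differences of -0.09 ± 0.24 for deficient against adequate and 0.08 ± 0.24 for excess against adequate (SE). Without pig 11 the excess against adequate difference of COX6C was 0.31.

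Complex V consists of the catalytic F1 head, the ring of c subunits that turns in the membrane, and a peripheral stalk that holds the head still. Of its 11 measured enzyme subunits 2 were higher and 9 lower in deficient than in adequate pigs (median -0.07), and 7 were higher and 4 lower in excess than in adequate pigs (median 0.00), or 8 and 3 without excess pig 11 (median 0.04) and 1 and 10 after median centring (median -0.05). None of the 11 had groups that did not overlap in either comparison. For deficient against excess 4 were higher and 7 lower (median -0.04), or 2 and 9 without excess pig 11 (median -0.11), and over all 9 pigs ATP5L alone had groups that did not overlap. Excess pig 11 was the lowest of the 9 for 4 of these 11 subunits (36.4%).

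All 4 measured genes of the F1 head were lower in deficient than in adequate pigs, with a median of -0.09 and no separation of the groups. ATP5B, the catalytic beta subunit, measured 12.53, 12.46 and 12.63 in deficient pigs, 12.72, 12.60 and 12.29 in excess pigs and 12.60, 12.66 and 12.62 in adequate pigs. ATP5A1, the alpha subunit, measured 11.07, 10.80 and 11.25 in deficient pigs, 11.34, 11.20 and 10.91 in excess pigs and 11.15, 11.13 and 11.10 in adequate pigs. Both overlapped between the diets. ATP5D, the delta subunit, had 11.28, 11.28 and 11.34 in deficient pigs, 11.53, 11.54 and 11.28 in excess pigs and 11.31, 11.52 and 11.53 in adequate pigs, with differences of -0.15 ± 0.09 (SE) for deficient against either other diet, and -0.24 for deficient against excess without pig 11.

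In the peripheral stalk ATP5O, which joins the stalk to the head, measured 10.18, 10.38 and 10.50 in deficient pigs, 10.62, 10.54 and 10.11 in excess pigs and 10.49, 10.47 and 10.30 in adequate pigs. ATP5G1 and ATP5G3, which encode the same mature c subunit, had deficient minus adequate differences of -0.07 ± 0.12 and -0.04 ± 0.10 and excess minus adequate differences of -0.13 ± 0.12 and 0.06 ± 0.10 (SE). Without pig 11 the excess minus adequate difference of ATP5G1 was -0.04. The diets overlapped for all 3 genes. ATP5L, subunit g of the membrane part, measured 8.65, 8.67 and 8.69 in deficient pigs, against 8.77, 9.04 and 8.70 in excess pigs. The groups were almost touching, and the difference was -0.17 ± 0.11 (SE).

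Among the complex V names, the largest differences belonged to the 2 genes that are not parts of the enzyme, ATP5SL in both comparisons with adequate pigs and ATP5S between deficient and excess pigs. ATP5SL measured 9.44, 9.65 and 9.65 in deficient pigs and 9.73, 9.65 and 8.99 in excess pigs, against 10.10, 10.02 and 10.18 in adequate pigs. All 6 pigs of the deficient and excess groups lay below all 3 adequate pigs. The difference was -0.52 ± 0.19 for deficient against adequate (SE, 1.43-fold lower, unadjusted p = 0.0249 by limma, adjusted p = 1.0) and -0.64 ± 0.19 for excess against adequate (1.56-fold lower, unadjusted p = 0.00936 by limma, adjusted p = 0.757). Without excess pig 11 the second was -0.41.

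ATP5S measured 7.53, 7.47 and 7.44 in deficient pigs, 7.33, 7.21 and 6.96 in excess pigs and 7.35, 7.45 and 7.33 in adequate pigs. The excess pigs lay below all others, although the highest of them and the lowest adequate pig were equal to 2 decimals. Its difference was 0.32 ± 0.10 for deficient against excess (SE, unadjusted p = 0.0136 by limma) and -0.21 ± 0.10 for excess against adequate (unadjusted p = 0.0675 by limma). Without pig 11 these were 0.21 and -0.11. In the test for any difference among the diets, NDUFA1, ATP5SL and ATP5S had unadjusted p-values of 0.0172, 0.0209 and 0.0364 by limma, each with an adjusted p of 0.933.

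Of the 13 subunits encoded in mitochondrial DNA, 8 were measured. Their deficient minus adequate differences were positive for 7 and negative for 1 (median 0.06), and their excess minus adequate differences were positive for all 8 (median 0.14), or 6 positive and 2 negative without excess pig 11 (median 0.03) and 5 and 3 with array SD as covariate. For deficient against excess 1 was positive and 7 negative (median -0.05), or 5 and 3 without pig 11 (median 0.02). None was called, and the mitochondrial and nuclear genes were not tested against each other. Excess pig 11, the lowest pig for most nuclear subunits, was the highest of the 9 for all 8 mitochondrial genes, with a median deviation of 0.25 against -0.29 for the 53 nuclear genes. The same pig was the highest for 28.8% of all probe sets and for 4.35% of those with a mean of at least 9. ND6, the only subunit encoded on the light strand, measured 9.61 in that pig. Its values were 6.63, 6.90 and 7.26 in deficient pigs, 7.14 and 7.42 in the other excess pigs and 7.41, 7.07 and 7.31 in adequate pigs. ND2, a proton-pumping core subunit of complex I, measured 12.53, 12.24 and 11.80 in deficient pigs, 12.20, 12.43 and 12.98 in excess pigs and 12.08, 12.29 and 12.07 in adequate pigs, with an excess minus adequate difference of 0.39 ± 0.24 (SE) and overlapping groups, or 0.17 without pig 11.

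**Figure D4:**
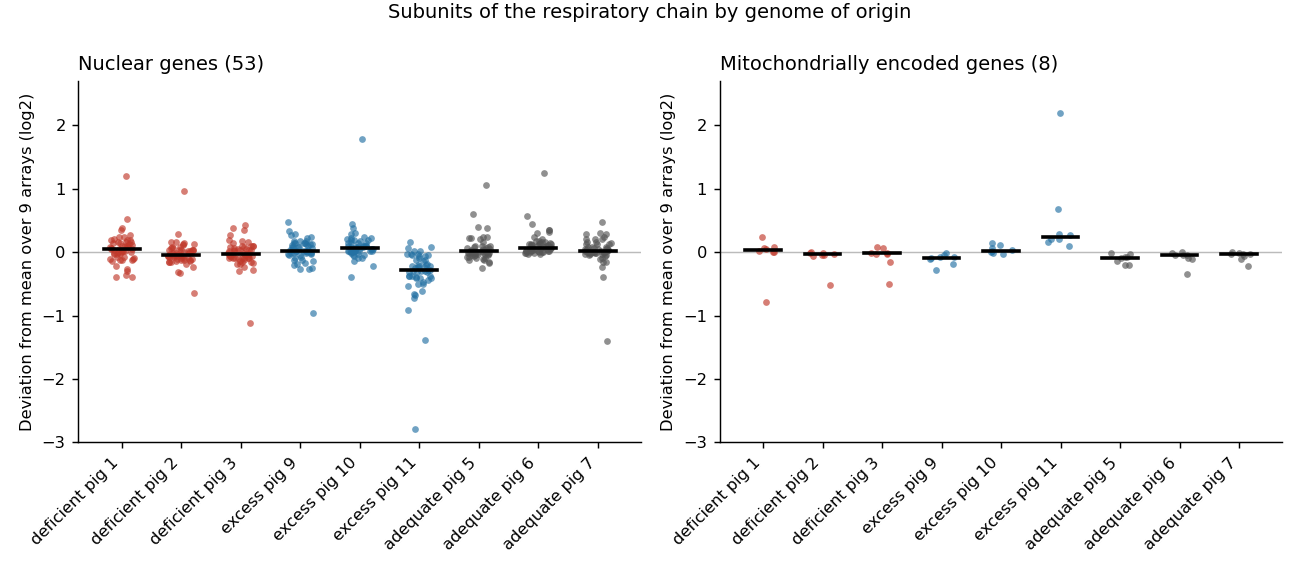
Deviation of each gene from its own mean over the 9 arrays (log2, vertical axis) by pig (horizontal axis) for the 53 nuclear genes, left, and the 8 mitochondrially encoded genes, right, with bars at the medians. In excess pig 11 the medians are -0.29 on the left and 0.25 on the right.

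Of the genes that build or serve the complexes, none was called in any comparison. Assembly factors (19 of 48 listed were measured) had medians of -0.03 for deficient against adequate, -0.09 for excess against adequate and 0.04 for deficient against excess. The last 2 were 0.0018 (10 higher, 9 lower) and -0.04 without excess pig 11. SDHAF2, which attaches the flavin to succinate dehydrogenase, measured 6.65, 6.79 and 6.87 in deficient pigs and 6.81, 6.81 and 6.54 in excess pigs, against 6.94, 7.05 and 7.16 in adequate pigs. As for ATP5SL and NDUFA10, neither group overlapped with the adequate pigs, and the differences were -0.28 ± 0.10 and -0.33 ± 0.10 (SE). LYRM7, a chaperone of the Rieske protein of complex III, measured 8.72, 8.49 and 8.64 in deficient pigs, 9.11, 9.04 and 8.89 in excess pigs and 8.71, 9.15 and 9.24 in adequate pigs, so that the deficient pigs lay below the excess pigs and overlapped with the adequate ones. FMC1, an assembly factor of the ATP synthase, differed by 0.41 ± 0.20 (SE) for deficient against excess with overlapping groups, and by 0.19 without pig 11.

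Genes of coenzyme Q synthesis (9 of 14 listed) had medians of 0.03 for deficient against adequate, -0.15 for excess against adequate and 0.22 for deficient against excess, and the last 2 were -0.01 and 0.05 without excess pig 11. PDSS1, which makes the side chain of coenzyme Q, measured 6.43, 6.77 and 6.45 in deficient pigs, against 6.36, 6.23 and 5.59 in excess pigs, without overlap, and COQ8A measured 10.39, 10.09 and 10.46 in deficient pigs, against 10.92, 10.47 and 10.48 in excess pigs, in the opposite direction. COQ3, a methyltransferase of the same pathway, differed by 0.22 ± 0.12 (SE) for deficient against excess, with overlap, and by 0.13 without pig 11. In the tricarboxylic acid cycle and pyruvate dehydrogenase (13 of 18 listed) the medians were 0.00, -0.03 and 0.07 in the same comparisons, and without pig 11 the excess against adequate and deficient against excess medians were 0.09 and -0.05. CS, citrate synthase, often used as a measure of mitochondrial content, differed from adequate by 0.04 ± 0.11 in deficient and 0.00 ± 0.11 in excess pigs (SE), or 0.09 in excess pigs without pig 11, and DLST, IDH3G and SUCLA2 had overlapping groups in every comparison.

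Regulators of mitochondrial genes (10 of 18 listed) had medians of -0.01 for deficient against adequate, -0.13 for excess against adequate and 0.07 for deficient against excess. With pig 11 left out, the last 2 were -0.0043 (5 higher, 5 lower) and -0.02. TFAM, which packages and transcribes mitochondrial DNA, differed from adequate by 0.11 ± 0.15 in deficient and -0.12 ± 0.15 in excess pigs, and ESRRA, a nuclear receptor of oxidative genes, by -0.15 ± 0.19 in deficient and -0.07 ± 0.19 in excess pigs (SE). Without pig 11 the excess differences of TFAM and ESRRA were 0.04 and 0.17. PPARA, a receptor for fatty acids, had differences of -0.45 ± 0.28 in deficient and -0.47 ± 0.28 in excess pigs (SE), with overlap, and the excess difference was -0.15 without pig 11, while PPRC1 and GABPB1 differed for deficient against excess by 0.42 ± 0.20 and 0.12 ± 0.07 (SE), without overlap for GABPB1. Genes of the mitochondrial membranes and of protein import (12 of 19 listed) had medians of -0.01 for deficient against adequate, -0.10 for excess against adequate and 0.04 for deficient against excess. Excess pig 11 was lowest for 11 of the 12, and without it the last 2 medians were 0.02 and -0.06. VDAC1, the main channel of the outer membrane, differed from adequate by -0.05 ± 0.07 in deficient and by -0.05 ± 0.07 in excess pigs (SE), or -0.0039 in excess pigs without pig 11. TOMM70, VDAC2 and VDAC3 were higher in deficient than in excess pigs by 0.35 ± 0.18, 0.22 ± 0.12 and 0.13 ± 0.07 (SE), with groups that did not overlap for TOMM70 and VDAC3. Without pig 11 these 3 differences were 0.12, 0.08 and 0.06.

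With array SD as covariate, the excess against adequate medians turned positive for these 5 lists, at 0.02 for assembly factors, 0.08 for coenzyme Q synthesis, 0.10 for the tricarboxylic acid cycle, 0.03 for regulators and 0.06 for membranes and import.

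Muscle is a mixture of fibre types and other cells, and in such bulk tissue fewer cells of a type and less RNA per cell cannot be told apart. Markers of slow fibres, which are rich in mitochondria (5 of 8 listed), were 4 higher and 1 lower in deficient than in adequate pigs (median 0.22) and 5 higher and 0 lower in excess than in adequate pigs (median 0.30, or 0.29 without pig 11). Their mean level per pig ran from 11.5 to 11.7 in deficient pigs, from 11.6 to 11.9 in excess pigs and from 11.3 to 11.5 in adequate pigs. The 6 of 9 listed fast-fibre markers were 0 higher and 6 lower in deficient than in adequate pigs (median -0.09) and 1 higher and 5 lower in excess than in adequate pigs (median -0.04). Fibroblast markers (7 of 8 listed) were lower than adequate for all 7 genes under both diets, also under the other scalings, with medians of -0.42 for the deficient and -0.47 for the excess diet. The excess median was -0.30 without pig 11 and -0.23 with array SD as covariate. Their mean levels per pig were 9.55 to 9.98 in deficient pigs, 9.41 to 9.95 in excess pigs and 10.0 to 10.4 in adequate pigs. ATP5SL, NDUFA10, NDUFB1 and SDHAF2 also lay below adequate under both diets. These genes were named by lack of overlap or by small p in the same comparisons, so the shared direction is not an independent observation. Adequate pig 5 was the highest of the 9 for all 7 fibroblast markers. ATP5SL, NDUFB1 and SDHAF2 were highest in adequate pig 7, and NDUFA10 in adequate pig 6. Adipocyte markers (6 of 8 listed) had medians of 0.17 for deficient against adequate and -0.42 for excess against adequate, and endothelial markers (5 of 6 listed) 0.07 and 0.04. For deficient against excess the adipocyte median was 0.63 (5 higher, 1 lower), or 0.59 without pig 11. The deficient pigs lay above without overlap for 4 of these 6 genes, against 4.28% of all probe sets. The other medians there were -0.18 for slow-fibre, -0.06 for fast-fibre, 0.11 for fibroblast and 0.08 for endothelial markers. Without pig 11 the last 2 were -0.12 and 0.00. No marker list held a called gene, and the part of these cell types in the differences of the oxidative phosphorylation genes was not tested.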

How the data were processed

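Per the labels' protocols, total RNA of frozen muscle was extracted with TRIzol and amplified to sense-strand cDNA with the Ambion WT Expression kit for GeneChip arrays, 1 per pig. The deposited values are the authors' processed log2 values per probe set. Per the submitters' processing notes, GCOS 1.2 and Partek were used, for steps that the notes as seen here do not name. How probes were background-corrected, summarized and normalized is not stated, and the log base was inferred from the range of the values. No build is stated, so no coordinates are given. Symbols came from the platform annotation: 13323 probe sets had 1 symbol, 357 several and 13878 none here.

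The deposited values were used unchanged. limma 3.58.1 in R 4.3.3 fitted 1 mean per diet to all 9 arrays and all 27558 probe sets (lmFit and eBayes, two-sided, Benjamini-Hochberg adjustment over all probe sets, threshold 0.05). The fit was tested on simulated data. Tables and figures used Python 3.11.15 and matplotlib 3.10.9. A difference is written with its SE from this model. The pigs are separate animals, and 3 per diet limit the precision.

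The genes and gene lists were chosen with earlier results of these data known. Genes named with values were defining subunits and tissue isoforms, in each comparison the 2 genes of each complex with the smallest unadjusted p, genes whose diets did not overlap, genes whose probe sets disagreed in sign, up to 3 genes from each other list by smallest unadjusted p, and a set of regulators and content markers. NDUFB6 and the other genes given by range or in passing fell outside this rule. The identical probe sets of COX7A2 and of NDUFS8 were counted once. As alternatives, arrays were quantile-normalized once more or centred on their medians, and the fit was repeated without the dimmest 25 percent of probe sets, with array SD as covariate, with array quality weights, with an intensity trend and robust prior, on the 6 arrays compared, on means over a gene's probe sets, and without each pig in turn.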

Additional observations from a re-analysis of the deposited data

How the results depend on the processing

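No oxidative phosphorylation gene passed the adjusted threshold by limma under any alternative, and 3 pigs per diet limit what could. No paired analysis was run, because the labels used here give no pairing or block of pigs across diets. Groups of 3 are too small for a search for outlying samples. The cause of each shift below was not tested. For excess against adequate, 15 genes had a positive difference. The number was 26 after quantile normalization, 4 after median centring, 24 with array SD as covariate, and 4 to 29 on leaving out 1 pig (29 without excess pig 11, 4 without excess pig 10 and 9 without adequate pig 5). For deficient against excess, 36 were positive, 22 with the covariate and 18 to 42 without 1 pig (18 without excess pig 11). For deficient against adequate, 18 were positive, and 10 to 23 without 1 pig (10 without deficient pig 1). Medians without 1 pig ran from -0.028 to 0.18 for complex I in deficient against excess, from -0.065 to 0.033 for complex V in excess against adequate and from -0.11 to 0.019 for complex V in deficient against excess, where quantile normalization gave -0.096. Complex V here means all 13 genes of the symbol rule, with ATP5S and ATP5SL included.

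Signs of small differences turned. In excess against adequate, quantile normalization gave 0.0094 for SDHD and 0.021 for TFAM. Median centring gave -0.052 for CS and -0.051 for UQCRB, array weights -0.0035 for UQCRB, and the covariate 0.17 for ESRRA, 0.021 for SDHD, 0.050 for TFAM, -0.0041 for UQCRB and 0.00098 for VDAC1. In deficient against excess, quantile normalization gave -0.048 for UQCRB. Without 1 pig, deficient against adequate ran from -0.052 to 0.12 for CS, -0.0071 to 0.054 for SDHD, -0.80 to 0.78 for UQCR10 and -0.073 to 0.061 for UQCRB. In excess against adequate the ranges were -0.075 to 0.088 for CS, -0.21 to 0.17 for ESRRA, -0.063 to 0.019 for SDHD, -0.25 to 0.041 for TFAM, -2.17 to 0.12 for UQCR10 and -0.022 to 0.025 for UQCRB. In deficient against excess they were -0.0014 to 0.087 for SDHD, -0.065 to 2.22 for UQCR10 and -0.079 to 0.055 for UQCRB. The differences named in the text for NDUFA1, NDUFS3, NDUFA10, NDUFB1, NDUFB11, ATP5SL, ATP5S and ATP5L kept their sign under each of up to 17 alternatives.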

Other observations

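The genes whose values ran most like the mean of the 53 centred members over the 9 arrays were NEDD1, a centrosome component (r = 0.98), MRPS34 of the mitochondrial ribosome (r = 0.96), the nuclear pore gene NUP155 (r = 0.96), PDK1, a kinase that inhibits pyruvate dehydrogenase (r = 0.96), and C5H12orf29 (r = 0.96). These points share the array of excess pig 11, and over the other 8 arrays the correlations were 0.87, 0.73, 0.76, 0.70 and 0.67. PDK1 had exactly the same value, 7.40, in deficient pigs 1, 2 and 3, adequate pig 5 and excess pig 9. Only adequate pigs 6 and 7 and excess pigs 10 and 11 differed from that value. NEDD1 measured 7.54, 7.52 and 7.51 in deficient pigs, 7.58, 7.75 and 6.88 in excess pigs and 7.52, 7.82 and 7.54 in adequate pigs, so that pig 11 was also its lowest. The mean of the members was taken without scaling each gene. UQCR10, with the largest within-diet SD of the members at 1.74, therefore counted most in it.

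For ATP5SL, the deficient minus adequate difference of -0.52 had an SE of 0.08 in place of 0.19 when excess pig 11 was left out of the shared estimate of spread, with an unadjusted p of 0.000378 by limma. It did not pass the adjusted threshold in that fit either. For NDUFA1 the corresponding SE was 0.11 and the unadjusted p 0.0278 by limma.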
